A study of Mus musculus with 2 samples.

Results

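The 10 genes described here mark melanocytes, the pigment cells of the skin, and the melanomas that arise from them, and were followed through single-cell RNA sequencing of mouse melanoma tumours. They are Pmel, Mlana, Tyr, Tyrp1, Dct, Slc45a2, Trpm1, Mc1r, Mitf and Sox10, chosen by name as a fixed list of 10 of the 31053 genes in the count tables, of which 19995 had a UMI in at least 1 barcode. A UMI is a molecular tag, so each UMI stands for 1 captured RNA molecule. All 10 genes were detected, each with at least 200 UMIs in the melanoma cells of both libraries together. None of the marker lists used to recognise cells held any of the 10.

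Pigment is made in the melanosome, a lysosome-related organelle. PMEL forms the fibrils on which melanin is laid down and MLANA is a small membrane protein needed for PMEL to mature. Tyrosinase (TYR) catalyses the rate-limiting oxidation of tyrosine, and its relatives DCT (dopachrome tautomerase) and TYRP1 act on later intermediates of eumelanin, while SLC45A2 is a membrane transporter that affects melanosome pH. MC1R is the receptor for melanocyte-stimulating hormone, which acts through cyclic AMP to raise MITF, the transcription factor that binds M-box elements (an E-box with an extended flank) in the promoters of pigment genes. SOX10, a neural crest factor, also acts on MITF and DCT, and TRPM1 is a cation channel whose gene carries the microRNA gene Mir211 within it and is a known MITF target.

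Promoters are shown for the 6 of these genes that had a matched entry, because the M-box is the element through which MITF is known to act on pigment genes. Sequences are from RefSeq on GRCm38.p6 and cover 250 bases before to 50 bases after an annotated start. They are written in the direction of transcription, in lower case, with the searched letters in capitals. The searched motifs were TCATGTG, the core of the M-box, and TGACGTC, the core of a cyclic AMP response element, on both strands. These 2 motifs share no letters in any printed promoter.
Tyr, chr7:87493463-87493762, minus strand: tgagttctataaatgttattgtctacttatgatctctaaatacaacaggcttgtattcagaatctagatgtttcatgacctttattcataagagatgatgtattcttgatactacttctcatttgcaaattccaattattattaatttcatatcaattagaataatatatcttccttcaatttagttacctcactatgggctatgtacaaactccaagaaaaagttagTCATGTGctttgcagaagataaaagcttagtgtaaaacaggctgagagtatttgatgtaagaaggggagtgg
Tyrp1, chr4:80833963-80834262, plus strand: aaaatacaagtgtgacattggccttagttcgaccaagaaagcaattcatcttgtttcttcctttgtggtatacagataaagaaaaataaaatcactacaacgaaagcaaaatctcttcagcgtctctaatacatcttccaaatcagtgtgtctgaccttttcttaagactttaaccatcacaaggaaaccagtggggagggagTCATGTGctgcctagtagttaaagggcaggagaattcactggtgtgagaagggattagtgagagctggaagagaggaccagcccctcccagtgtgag
Dct, chr14:118052197-118052496, minus strand: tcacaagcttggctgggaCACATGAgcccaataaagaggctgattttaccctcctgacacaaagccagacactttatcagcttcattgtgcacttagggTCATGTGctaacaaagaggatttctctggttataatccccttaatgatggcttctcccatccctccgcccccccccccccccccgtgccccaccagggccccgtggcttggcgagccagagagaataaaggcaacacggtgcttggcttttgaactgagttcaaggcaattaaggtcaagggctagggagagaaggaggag
Trpm1, chr7:64153585-64153884, plus strand: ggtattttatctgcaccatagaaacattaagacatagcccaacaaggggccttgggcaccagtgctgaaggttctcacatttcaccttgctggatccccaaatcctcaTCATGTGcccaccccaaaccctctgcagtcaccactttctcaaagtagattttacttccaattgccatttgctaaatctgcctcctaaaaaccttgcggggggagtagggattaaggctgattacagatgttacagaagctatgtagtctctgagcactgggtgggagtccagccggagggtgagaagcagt
Mc1r, chr8:123406832-123407131, plus strand: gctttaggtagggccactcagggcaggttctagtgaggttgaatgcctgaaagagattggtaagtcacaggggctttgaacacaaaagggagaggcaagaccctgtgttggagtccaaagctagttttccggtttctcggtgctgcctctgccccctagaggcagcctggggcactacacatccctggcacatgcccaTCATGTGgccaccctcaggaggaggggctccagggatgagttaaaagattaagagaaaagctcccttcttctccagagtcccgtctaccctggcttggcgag
Mitf, chr6:97991533-97991832, plus strand: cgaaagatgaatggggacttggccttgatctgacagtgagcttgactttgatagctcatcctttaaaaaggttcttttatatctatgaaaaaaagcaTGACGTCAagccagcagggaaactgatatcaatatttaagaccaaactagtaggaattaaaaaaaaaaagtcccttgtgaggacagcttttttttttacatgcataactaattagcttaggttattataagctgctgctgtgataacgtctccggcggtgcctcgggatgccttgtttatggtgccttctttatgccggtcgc

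TCATGTG started 22 bases before the start of Tyr, 47 bases before that of Tyrp1, 52 bases before that of Mc1r and 142 bases before this start of Trpm1. Dct held it on the forward strand 151 bases before its start and on the reverse strand 232 bases before it. In all, 5 of the 9 promoter entries of these genes held TCATGTG, against 3.77% of 32851 promoter entries of the same length. TGACGTC was found in 1 of the 9 entries, a promoter of Mitf, where the 2 strands overlap at 153 and 152 bases before the start, against 3.21% of all entries. A match is a description of letters in a window and says nothing of binding. Promoter sequences were matched for 6 of the 10 genes, with 3 entries for Mitf and 2 for Trpm1, and those of Pmel, Mlana, Sox10 and Slc45a2 were not matched.

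The tumours were small subcutaneous tumours of B16F10, a pigmented melanoma line of C57BL/6 mice, grown in the flank of hosts with or without the stress-response factor ATF4. The WT library is from Atf4wt/wt hosts and the KO library from Atf4D/D hosts, in which loxP-flanked exons 2 and 3 of Atf4 were removed by a tamoxifen-activated Cre expressed from the Rosa26 locus. Hosts of both genotypes carried this Cre, received tamoxifen by oral gavage and, per the labels, were 11 weeks old. The study used males and females across its in vivo work, and the sex of the mice in each pool is not known here. Tumours of 2 mice per genotype were pooled into 1 library, so mouse, library and genotype cannot be told apart and no test between genotypes is possible. The Cre acts in host cells only: the injected B16F10 cells are not of host genotype and keep their own Atf4 in both libraries, and all come from a single established line. Levels are given as CPM, the usual scaling of a gene's counts by the total count, here the UMIs summed over a group of cells. Atf4 was at 227 and 213 CPM in the melanoma cells of the WT and KO library, and at 189 and 51.8 CPM in macrophages.

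There were 38417113 UMIs in 6304 barcodes of WT and 38290024 UMIs in 5474 barcodes of KO, and 10 barcodes occur in both. Of these, 3861 WT and 3557 KO cells passed the limits on genes and on mitochondrial RNA, with medians of 3920 and 6279 UMIs. Melanoma cells, gated by 16 other melanoma markers such as Mlph and Syngr1 with almost no host markers, numbered 1673 in WT and 1950 in KO, at medians of 11441 and 10655.5 UMIs and 6.07% and 5.34% mitochondrial UMIs. The gating list summed to 1663 and 1666 CPM in them, with Gapdhs at 0 in both. Some genes of this list varied with the 10 genes between cells (4 of 10 readable ones were higher in WT cells rich in the 10 genes, and 5 of 10 in KO), but a single UMI of the list was enough to pass. Host marker lists were low in them, the macrophage list at 62.3 and 64.5 CPM and the fibroblast list at 38.9 and 45.0 CPM. Haemoglobin and other red cell genes stood apart between the libraries, at 42.7 CPM in melanoma cells of WT against 0.05 CPM in those of KO, and the part of this in the results below was not tested.

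Dct was the most abundant of the 10 genes in melanoma cells, at 5617 CPM in WT (95% interval 5583 to 5650) and 4449 CPM in KO (4420 to 4477), which is 40.7% and 43.5% of all UMIs of the 10 genes. Because the method reads the 3′ end and counts molecules, CPM values are compared between genes without scaling by length. All intervals cover counting error at 95% only. Of the melanosome matrix genes, Pmel was at 2566 CPM in WT and 1634 in KO, and Mlana at 1535 and 1342. Tyrp1, the other abundant enzyme gene, was at 2521 and 1669 CPM. Tyr, the gene of the rate-limiting enzyme, was far lower, at 202 CPM in WT and 152 in KO.

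The remaining genes lay between these and the detection floor. Mitf was at 533 CPM in WT and 334 in KO, Slc45a2 at 425 and 355, and Trpm1 at 219 and 91.3. Sox10 was at 142 and 129 CPM and Mc1r at 51.9 and 77.7. Dct, Mlana and Mc1r held the same place in the order of both libraries, and the others did not. Pmel and Tyrp1 stood next to each other in either order, with intervals that just overlapped in WT (2543 to 2588 and 2499 to 2544 CPM) and did not in KO (1617 to 1651 and 1652 to 1687). Mitf stood above Slc45a2 in WT and below it in KO, and Trpm1 above Tyr and Sox10 in WT but below both in KO. Together the 10 genes gave 13812 CPM in WT and 10233 CPM in KO.

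All 10 genes lie on autosomes, and positions are on GRCm38 from the GENCODE vM21 annotation. Pmel (ENSMUSG00000025359) is on chromosome 10 at 128704195 to 128720238, Mlana (ENSMUSG00000024806) on chromosome 19 at 29697824 to 29708634 and Tyr (ENSMUSG00000004651) on chromosome 7 at 87424771 to 87493512. Tyrp1 (ENSMUSG00000005994) is on chromosome 4 at 80834123 to 80851719, Dct (ENSMUSG00000022129) on chromosome 14 at 118012790 to 118052244 and Mitf (ENSMUSG00000035158) on chromosome 6 at 97807052 to 98021349. Each is annotated as protein coding. Sox10 (ENSMUSG00000033006) is on chromosome 15 at 79154908 to 79165240, as is Slc45a2 (ENSMUSG00000022243) at 11000721 to 11029233. Mc1r (ENSMUSG00000074037) is on chromosome 8 at 123407107 to 123410744 and Trpm1 (ENSMUSG00000030523) on chromosome 7 at 64153835 to 64269775.

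Some of these genes overlap others, which bears on how reads are assigned. Mc1r lies wholly inside Gm20388 on the same strand, and Gm20388 was listed at 0 UMIs in melanoma cells of both libraries. Cdk2 overlaps Pmel on the opposite strand, and 4930435M08Rik overlaps Dct in the same way. Whether the counting used strand is not given in the sources used here, so Cdk2 and Pmel are reported as overlapping.

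**Figure D1:**
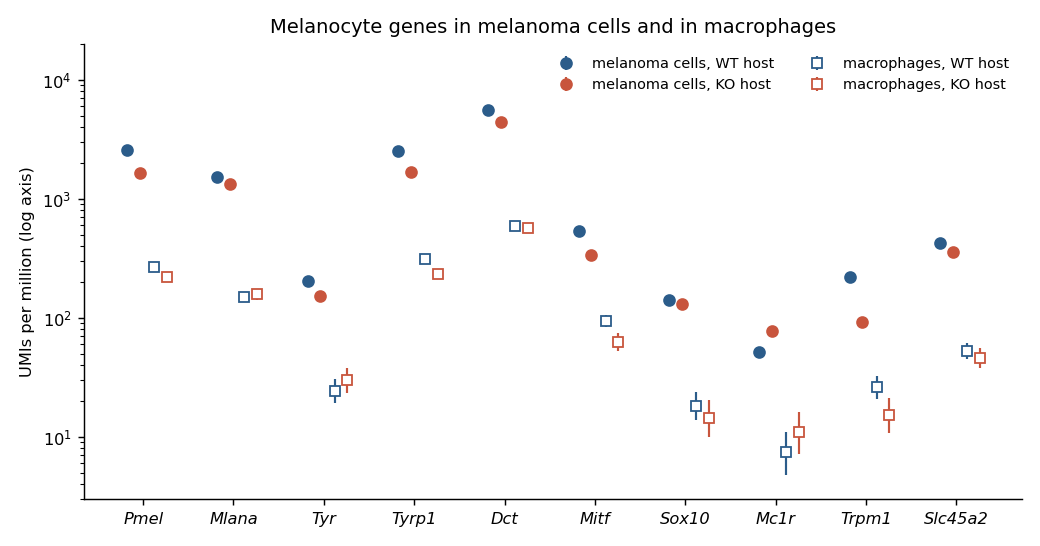
Level of each melanocyte gene in CPM (log axis) in melanoma cells (filled circles) and macrophages (open squares) of the WT (blue) and KO (red) library, with exact 95% Poisson intervals. Dct is highest in both cell types (5617 and 4449 CPM in melanoma cells), and every macrophage point lies below that of melanoma cells of the same library, at 595 and 568 for Dct.

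The host genotype comparison asks whether melanoma cells that grew in a host without Atf4 differ in these genes. Summed over the 10 genes the level was lower in the KO library, with a log2 KO/WT ratio of -0.43 (-0.44 to -0.42). Trpm1 was lowest relative to WT, at 219 against 91.3 CPM and a log2 ratio of -1.27 (-1.34 to -1.19). Mitf had -0.68 (-0.72 to -0.63), Pmel -0.65 (-0.67 to -0.63) and Tyrp1 -0.60 (-0.62 to -0.58). These 4 genes were lower by more than 1.5-fold, the size used here to call a difference. Of 9064 genes with at least 200 UMIs in these cells, 2.59% were lower by that much and 4.63% higher, with a median log2 ratio of 0.00. None of the 10 genes was called higher.

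The other 6 genes stayed within 1.5-fold. Tyr had a log2 ratio of -0.41 (-0.48 to -0.34), Dct -0.34 (-0.35 to -0.32), Slc45a2 -0.26 (-0.31 to -0.21) and Mlana -0.19 (-0.22 to -0.17). Sox10, the neural crest factor, had -0.14 (-0.21 to -0.06). Mc1r alone was higher in KO, at 51.9 against 77.7 CPM and a log2 ratio of 0.58 (0.47 to 0.70), a fold of 1.498 that falls just short of a call. The median over the 10 genes was -0.37. The intervals are narrow because they hold counting error alone, and the spread between tumours or mice cannot be read from 1 library per genotype.

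The libraries differed in their mix of melanoma cell states, so the comparison was repeated within states. Among melanoma cells with at least 2000 UMIs, 860 WT and 766 KO cells were gated as G2/M, 330 and 277 as S phase and 164 and 432 as non-cycling, while 400 and 604 were gated as hypoxic, which can be of any phase. Over 6 strata made by phase and hypoxia, the smallest with 40 cells, the log2 ratio of the sum ran from -0.60 to -0.35. That of Trpm1 ran from -1.52 to -0.98, that of Mitf from -1.0 to -0.50 and that of Pmel from -0.94 to -0.45. Mlana ran from -0.56 to -0.08. The strata weighted by cells gave -0.44 for the sum, beside the pooled -0.43. Non-cycling cells alone, described next, lay outside these ranges for the sum (-0.61), Mitf (-1.12), Mlana (0.03) and Mc1r (-0.48). Those of Trpm1 and Pmel lay inside. The strata thus do not describe the non-cycling cells by themselves. The strata were made by phase and hypoxia alone, and the part of other differences in cell state in the ratio was not tested. Sox10 and Mc1r took both signs over the strata. Sox10 ran from -0.23 to 0.22 and Mc1r from -0.13 to 0.97.

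Of S-phase, G2/M and non-cycling cells, the log2 ratio of the sum was lowest in non-cycling cells (-0.38 in S phase and in G2/M). In them the sum was 14028 CPM in WT and 9183 in KO, a log2 ratio of -0.61 (-0.64 to -0.59), and 6 of the 10 genes were lower by over 1.5-fold, against 5.0% of the 3560 genes tested there, and none higher, against 6.99%. Mitf was at 559 CPM in WT against 258 in KO (-1.12, -1.25 to -0.98) and Trpm1 at 147 against 51.4 (-1.51, -1.80 to -1.23). Pmel (-0.91), Tyr (-0.81), Tyrp1 (-0.79) and Dct (-0.59) were the others. Mlana did not follow them, at 1318 and 1343 CPM (0.03, -0.05 to 0.10). Mc1r took the other sign here than over all cells, at 85.8 CPM in WT and 61.5 in KO (-0.48, -0.80 to -0.16).

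In cycling cells Mc1r was higher in KO. It was at 57.9 CPM in WT and 104 in KO in S phase, a log2 ratio of 0.85 (0.60 to 1.10), and at 38.4 and 63.7 CPM in G2/M, a log2 ratio of 0.73 (0.55 to 0.91). Both pass 1.5-fold, and Mc1r was the 1 of 10 called higher in each phase, against 2.39% of the 4486 genes tested in S phase and 2.81% of the 7650 tested in G2/M. Called lower were Mitf (-0.73) and Trpm1 (-1.03) in S phase, against 1.6% of genes, and Trpm1 (-1.16) in G2/M, against 1.53%. Mc1r is the least abundant of the 10 genes, with 993 UMIs in all WT melanoma cells and 1637 in KO.

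**Figure D2:**
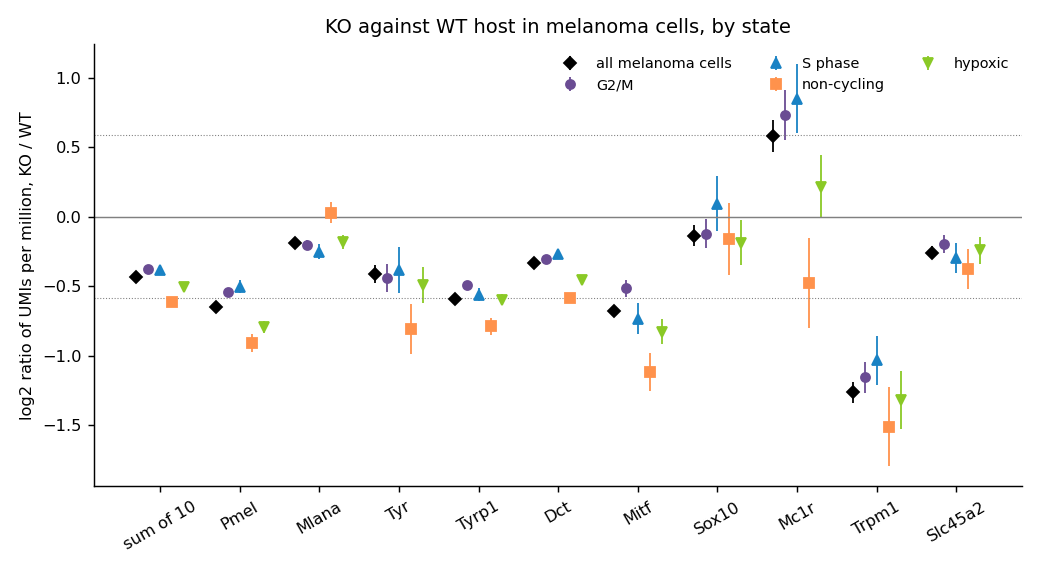
Log2 ratio of CPM between the KO and the WT library for the 10 genes summed and for each gene, in all melanoma cells (black diamonds) and in G2/M, S-phase, non-cycling and hypoxic melanoma cells, with exact 95% intervals of counting error. Dotted lines mark 1.5-fold. Trpm1 lies lowest in each group, and Mc1r lies above 0 in S-phase and G2/M cells (0.85 and 0.73) and below 0 in non-cycling cells (-0.48).

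Genes that act with the 10 in pigment biology showed a mixed picture between the libraries. Of 30 melanosome biogenesis and pigment transport genes, 27 had enough UMIs, of which 3 were lower in KO (Sytl2, Gpr143 and Slc24a5) and 1 higher (Slc7a11), with a median log2 ratio of 0.01. Sytl2, which tethers melanosomes at the cell edge, was at 26.8 CPM in WT and 14.1 in KO (-0.92), and Gpr143, the ocular albinism receptor of melanosomes, at 32.2 and 18.4 (-0.81). Slc24a5, a melanosomal cation exchanger, was at 507 and 323 CPM (-0.65). Slc7a11, the cystine importer, was at 11.6 and 26.4 CPM (1.18).

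Of 18 melanocyte ligands, signalling genes and transcription factors, 12 could be read and 1, Sox5, was lower in KO (-0.68), with a list median of -0.13. Of 12 MITF targets outside pigment synthesis, 8 could be read. Cdk2, a cell cycle kinase that overlaps Pmel, was lower at 181 against 97.4 CPM (-0.89), while Cdkn1a (p21), a cell cycle inhibitor, was higher at 142 against 363 CPM (1.35), as was Rragd (0.74). Nes, the intermediate filament nestin, was higher at 17.1 against 39.7 CPM (1.21) and was the single call among 3 readable genes of a 15-gene list of melanoma cells with low pigment. Genes of other lists also differed between the libraries. In KO melanoma cells 7 of 10 stress-response genes and 3 of 19 hypoxia genes were higher, beside 4.63% of all genes tested. Of the S-phase genes 5 of 24 and of the G2/M genes 2 of 29 were lower, beside 2.59%. The part of these genes in the levels of the 10 genes was not tested beyond the strata by phase and hypoxia.

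Cells differed widely in the 10 genes within each library. The 10th percentile, median and 90th percentile of their summed level over melanoma cells were 8930, 13589 and 18749 CPM in WT, and 4143, 10017 and 15340 in KO. The KO library reached further down at the low end than at the median. With every cell thinned to 4000 UMIs, which left out 117 WT and 148 KO cells, the mean count of the 10 genes per cell was 55.0 in WT and 40.7 in KO, and the variance was 5.02 and 7.99 times the mean. In non-cycling cells it was 7.91 and 16.7 times the mean, and in G2/M cells 4.30 and 5.27 times. Independent counting alone would give about 1.

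Single genes were missed in many cells at this depth. After thinning to 4000 UMIs, Dct was unseen in 0.06% of WT and 1.0% of KO melanoma cells, and Pmel in 1.09% and 8.49%. Pmel was unseen in 1.91% of WT and 22.7% of KO non-cycling cells. Mitf was unseen in 22.0% of WT and 37.8% of KO melanoma cells and Trpm1 in 50.8% and 75%. For the less abundant genes a cell without a UMI is not a cell without the RNA.

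**Figure D3:**
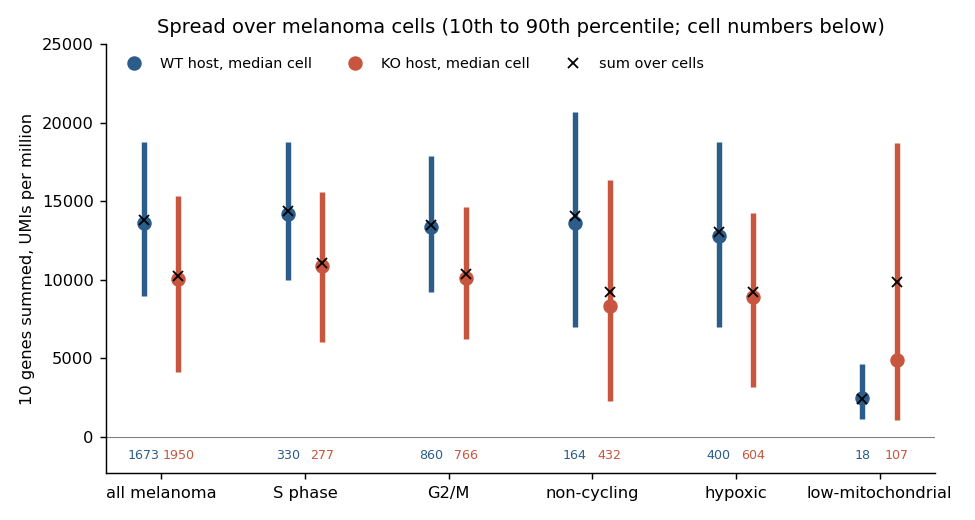
Summed level of the 10 genes per cell, in CPM, by state of melanoma cells and library. Bars run from the 10th to the 90th percentile, circles are the median cell, crosses the level over all UMIs of the group, and cell numbers stand under the axis. The KO bar is longest in low-mitochondrial cells, where the median cell (4888) lies far under the summed level (9836).

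The first comparison between states asks whether pigment genes differ with the cell cycle. In WT, S-phase cells had 14389 CPM of the 10 genes against 14028 in non-cycling cells, a log2 ratio of 0.04 (0.01 to 0.06). In KO they had 11048 against 9183, a log2 ratio of 0.27 (0.25 to 0.29). Trpm1 was higher in S phase in both, at 242 against 147 CPM in WT (0.72, 0.51 to 0.95) and 118 against 51.4 in KO (1.2, 0.96 to 1.45). It was the only one of the 10 called higher in WT, against 18.1% of genes, and in KO 3 of 10 were called, against 16.6%, the others being Pmel (1154 to 1977 CPM, 0.78) and Mc1r (61.5 to 104 CPM, 0.76). None was called lower in either library, against 7.62% and 9.29% of genes. The counts are near those of genes in general, and the median of all genes was itself 0.11 in WT and 0.10 in KO.

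In G2/M cells the sum had a log2 ratio to non-cycling cells of -0.06 (-0.08 to -0.04) in WT and 0.18 (0.16 to 0.19) in KO. Pmel (0.61) and Trpm1 (0.92) were called higher in KO, against 18.8% of genes, and no gene in WT, against 19.2%, where Trpm1 had 0.57 (0.36 to 0.78). Tyr and Mc1r were called lower in WT, against 8.67% of genes, at 185 against 296 CPM for Tyr (-0.68, -0.83 to -0.53) and 38.4 against 85.8 for Mc1r (-1.16, -1.45 to -0.86). In KO none was called lower, against 8.1%, and Tyr had -0.31 (-0.45 to -0.18). Tyr was thus on the low side of non-cycling cells in both phases and both libraries, with intervals off 0 in all but S phase of KO (-0.13, -0.30 to 0.04). Dct, its relative, had -0.22 in S phase and -0.25 in G2/M of WT and 0.10 and 0.03 in KO.

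Other pigment genes changed little with phase. Of the melanosome list, 0 of 11 readable genes were higher and 2 lower in S phase of WT, and 2 of 14 higher and 1 lower in KO. In G2/M these were 0 and 2 of 23 in WT and 1 and 1 of 23 in KO. Cdkn1a of the MITF target list was lower in S phase, at 71.5 against 360 CPM in WT (-2.33) and 216 against 554 in KO (-1.36). Cyr61, a matricellular gene of the low-pigment list, was also lower in S phase, by -1.46 in WT and -2.13 in KO. Non-cycling cells were hypoxic in 70.1% of WT and 60.6% of KO cells, against 12.7% and 14.4% of S-phase cells, so phase and hypoxia moved together.

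**Figure D4:**
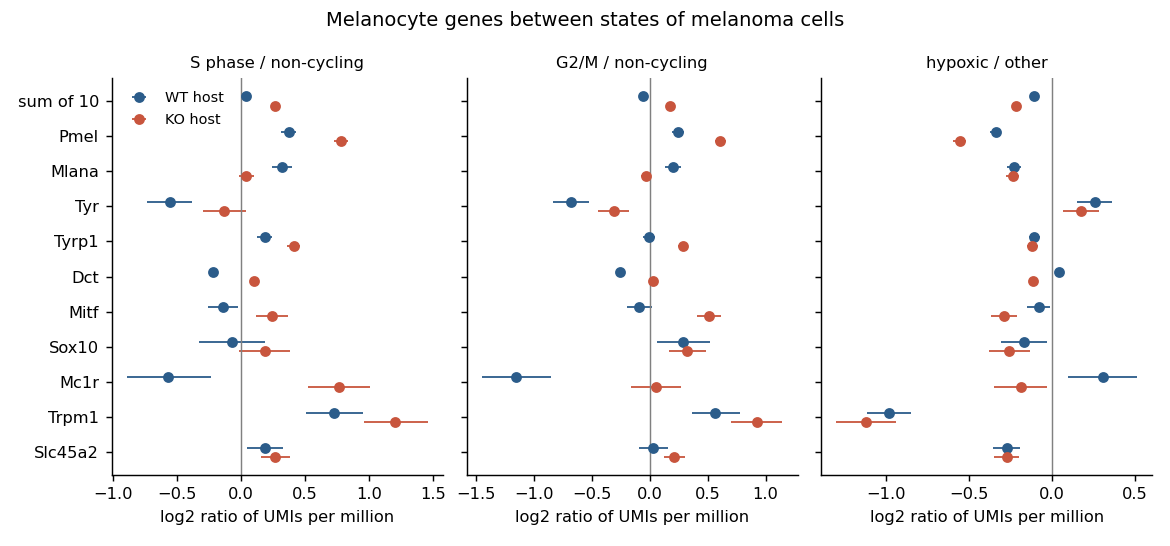
Log2 ratio of CPM for the 10 genes summed and for each gene in S-phase over non-cycling, G2/M over non-cycling and hypoxic over other melanoma cells, in the WT (blue) and KO (red) library, with exact 95% intervals of counting error. Trpm1 is above 0 in both cycling groups (0.72 and 1.2 in S phase) and below 0 in hypoxic cells (-0.98 and -1.12), and Mc1r in S phase lies on opposite sides of 0 in the 2 libraries.

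Hypoxic melanoma cells, with at least 0.3% of their UMIs from 22 hypoxia genes such as Car9 and Vegfa, had slightly less of the 10 genes. The sum was 13047 CPM against 14033 in other cells of WT (-0.11, -0.12 to -0.09) and 9195 against 10663 in KO (-0.21, -0.23 to -0.20). The median of all genes was -0.06 in WT and -0.10 in KO, so the shift of the sum relative to it was smaller. Trpm1 was the 1 gene called lower in each library, at 125 against 246 CPM in WT (-0.98, -1.11 to -0.84) and 50 against 108 in KO (-1.12, -1.30 to -0.94), beside 5.19% and 7.75% of genes. None was called higher, beside 5.81% and 5.11%.

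Pmel followed Trpm1 in direction, with -0.34 (-0.37 to -0.30) in WT and -0.56 (-0.59 to -0.52) in KO. Slc45a2 had -0.27 in both libraries and Mlana -0.23 in WT and -0.24 in KO. Tyr went the other way, at 232 against 194 CPM in WT (0.26, 0.15 to 0.36) and 165 against 146 in KO (0.18, 0.07 to 0.29). Within cycling cells the sum had -0.13 in WT and -0.23 in KO and Trpm1 -0.85 and -0.96. Within non-cycling cells, with low-mitochondrial cells left out, the sum had -0.13 and -0.11 and Trpm1 -0.76 and -1.08. Trpm1 was thus lower in hypoxic cells within cycling and within non-cycling cells. Tyrp1 took the other sign within non-cycling cells, at 0.09 in WT and 0.42 in KO, against -0.11 and -0.12 over all phases.

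Of the melanosome list, 4 of 25 readable genes were lower and 1 higher in hypoxic cells of WT, and 3 and 1 of 25 in KO. Slc24a5 was lower in both, at 357 against 549 CPM in WT (-0.62) and 233 against 361 in KO (-0.63), as was Sytl2 (-0.73 and -0.67). Cdkn1a was higher in both, at 327 against 89.4 CPM in WT (1.87) and 528 against 294 in KO (0.85). Cyr61 and Nes of the low-pigment list, the 2 of its 15 genes that could be read, were higher in both (0.97 and 0.78 in WT, 1.24 and 0.78 in KO).

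Melanoma cells with at most 1% mitochondrial UMIs were few, 18 in WT and 107 in KO, and looked different in the 2 libraries. In WT their sum was 2431 CPM against 13861 in other melanoma cells, a log2 ratio of -2.51 (-2.73 to -2.30) from 183 UMIs. In KO it was 9836 against 10246 (-0.06, -0.09 to -0.03) from 8007 UMIs. The log2 ratio of KO to WT was thus 2.02 (1.81 to 2.24) in these cells, in the other direction than in the rest. The WT result hangs on the 1% limit: WT cells with 1 to 3% mitochondrial UMIs had 13908 CPM, and with the lowest against the highest 10% of cells by mitochondrial share the log2 ratio was -0.21 in WT and 0.015 in KO. The KO value also changed sign with the median gene set to 0 (0.22) and with a stricter melanoma gate (0.020). In WT 9 of 10 genes were lower by over 1.5-fold, against 24.5% of genes, and none higher, against 31.9%, with Dct at 890 against 5631 CPM (-2.66), Pmel at 252 against 2579 (-3.35) and Tyrp1 at 213 against 2532 (-3.57). Sox10 was the exception, at 120 against 142 CPM (-0.25, -1.38 to 0.68). Tyr, Mc1r and Slc45a2 rested on 3, 2 and 2 UMIs there, so their folds are wide. Host cells of WT, described last, had sums of 2529 CPM in fibroblasts and 2111 in T and NK cells. Their macrophages had 1551 and endothelial cells 511. The part of free RNA in the 2431 CPM of the WT low-mitochondrial cells was not tested.

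In KO the genes called lower were Mitf, Sox10 and Mc1r. Mitf was at 133 against 341 CPM (-1.36, -1.65 to -1.09), Sox10 at 73.7 against 132 (-0.84, -1.23 to -0.47) and Mc1r at 30.7 against 79.6 (-1.37, -2.01 to -0.81), and these 3 of 10 are the share of genes in general, of which 30.9% were called lower. None was called higher, beside 6.57%. Mlana was at 1849 against 1323 CPM (0.48, 0.41 to 0.56) and Dct at 4360 against 4449 (-0.03, -0.08 to 0.02). The median of all genes was -0.28 in this contrast in KO and 0.15 in WT. For these medians and the shares of called genes, a gene without a UMI in the low-mitochondrial cells was set to 3 UMIs. The WT group had 75283 UMIs and the KO group 814025, so this lifts the ratios of scarce genes far more in WT. The WT median and shares are thus not like those of KO, and the WT sum is not set against its median. The KO sum lay above the KO median.

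The KO group was uneven. Its cells had a median of 4888 CPM of the 10 genes, far from the 9836 of the summed UMIs, with 10th and 90th percentiles of 1052 and 18668. By depth, the 33 KO cells with 2000 to 4000 UMIs had a median of 2836 CPM against 8197 in other melanoma cells of that depth, and the 30 cells with 4000 to 8000 UMIs 2650 against 9973. The 44 deeper cells had 11198 against 10171. The medians of the shallower KO groups were thus near the WT low-mitochondrial median of 2483 CPM, while that of the deep cells was not. Of these KO cells 62.6% were non-cycling, against 16.7% in WT, which is 3 of 18 cells. Nupr1, a stress-response gene, was at 543 CPM against 107 in other KO cells and 106 against 20.1 in WT. The WT low-mitochondrial cells had 75283 UMIs in all, so their Nupr1 level rests on few UMIs. The gating list was at 1103 CPM in the WT and 1527 in the KO low-mitochondrial cells, with 7 and 3 of its 16 genes at 0, and the macrophage list at 133 and 68.8 CPM with 7 and 3 of 13 at 0. The part of RNA quality in these values was not tested.

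The next description asks which of the 10 genes vary together between cells. Melanoma cells thinned to 4000 UMIs were ordered by the sum of 9 genes, and the 10th gene was compared between the upper and lower 20% of cells, so that no gene ordered the cells it was read in. Trpm1 differed most, with 444 UMIs in the upper and 116 in the lower 20% of WT cells (log2 ratio 1.93, 1.63 to 2.24). In KO it had 255 and 29 UMIs (3.13, 2.58 to 3.74). The lower 20% held 311 WT and 360 KO cells. Pmel had 1.0 in WT and 1.91 in KO, Tyrp1 0.98 and 1.5, and Tyr 0.91 and 1.31. Slc45a2 had 0.84 and 1.68. These genes of fibril, enzymes, transporter and channel thus went up and down with the rest.

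Dct, the most abundant, had 0.54 in WT and 1.25 in KO, and Mlana 0.56 and 0.83. In WT the lowest ratios were those of Mitf, Sox10 and Mc1r, and in KO those of Mitf and Sox10. Mitf had 0.29 (0.13 to 0.45) in WT and 0.60 (0.40 to 0.80) in KO, and Sox10 0.02 (-0.28 to 0.32) and 0.49 (0.18 to 0.81). Mc1r had 0.37 (-0.13 to 0.87) and 0.99 (0.56 to 1.42). Within G2/M cells alone Trpm1 had 1.70 in WT and 2.96 in KO, Pmel 0.91 and 1.18, and Mitf 0.32 and -0.16. Mc1r had -0.11 (-0.90 to 0.68) in WT and 1.60 (0.83 to 2.43) in KO there, next to Trpm1 in KO, and Sox10 had -0.17 and 0.20. For Trpm1 and Pmel the co-variation was thus present within 1 phase in both libraries. In KO non-cycling cells Pmel had 3.72 and Dct 2.62, and in WT non-cycling cells 1.31 and 1.10. Mitf (1.67) and Sox10 (1.40) had ratios above that of Mlana (1.37) in KO non-cycling cells, and 0.28 and -0.27 in WT ones.

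With the cells ordered by all 10 genes, other pigment genes went with them. Of the melanosome list, 8 of 14 readable genes were higher by over 1.5-fold in the upper 20% of WT cells, against 2.28% of genes, and none lower, against 0.812%. In KO 6 of 15 were higher, against 4.7%, and 1 lower, against 3.75%. Slc24a5 had 1.26 in WT and 1.75 in KO, Rab27a, which carries melanosomes along actin with Myo5a, 0.79 and 1.63, and Myo5a 0.65 and 0.96. Gpnmb, a relative of Pmel, had 0.69 and 0.92 and Lyst, a lysosome trafficking gene, 0.97 and 0.67. The MITF targets Met (0.72 and 1.34), Ppargc1a (0.69 and 1.02) and Cdk2 (0.79 and 1.84) were higher and Cdkn1a lower (-1.18 and -1.11). Of the hypoxia list 3 of 14 readable genes were lower in WT and 10 of 16 in KO. Of the stress-response list 0 of 3 were lower in WT and 6 of 7 in KO (median -1.19), and of the low-pigment list 0 of 1 and 2 of 2. The part of these lists in the ordering of the cells was not tested. The lowest 20% of KO cells held 39 low-mitochondrial cells and were 40.6% non-cycling, against 20 and 23.5% in the highest 20%, and the lowest 20% of WT cells held 10 and were 11.6% non-cycling, against 0 and 15.4%.

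Among 9731 genes, those whose level over 16 groups of cells (8 cell groups in each library) was most like the sum of the 10 were Syt4 (Pearson r = 0.96), Ptgds (0.94), Amdhd1 and Gpr37 (both 0.93) and Car6, Gpm6a and Hoxd13 (each 0.92), then Xlr3a, Tram1l1 and Slc44a3 (each 0.91). The 16 points share 2 libraries, and melanoma and host groups form separate clusters, so these values describe a melanoma pattern and no more. Of the 10 genes themselves, Dct had 0.99 with the sum it is part of, and Mitf had the lowest, 0.79.

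The last comparison asks how much of these genes is read in cells of the host, which should not make pigment. In 1469 WT macrophages the 10 genes summed to 1551 CPM and in 1055 KO macrophages to 1360, which is 11.2% and 13.3% of the melanoma level. All 10 genes were lower in macrophages than in melanoma cells in both libraries, against 46.3% and 47.3% of genes, where 18.7% and 17.2% of genes were higher. Dct was at 595 CPM (569 to 622) in WT macrophages and 568 (538 to 600) in KO, Pmel at 269 and 222, and Tyrp1 at 314 and 233. With each cell thinned to 2000 UMIs, Dct was seen in 40.4% of WT macrophages and 99.6% of WT melanoma cells, and without thinning in 51.5% and 99.9%. Thinning left out 845 of 1469 macrophages, whose median depth was 1747 UMIs. In KO it was seen in 39.7% of macrophages and 96.9% of melanoma cells.

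Fibroblasts, endothelial cells and lymphocytes also held UMIs of these genes. Their sum was 2529 CPM in 203 WT and 1558 CPM in 243 KO fibroblasts, and 511 and 445 CPM in 65 WT and 23 KO endothelial cells. The 28 WT and 15 KO T and NK cells had 45 and 17 UMIs of the 10 genes in all. A few cells held much of it. The 36 WT and 21 KO macrophages in which the 10 genes made up over 0.5% of UMIs held 1930 of the 5014 and 1391 of the 3101 UMIs of these genes in macrophages, and Scrublet, a doublet caller, marked 19 WT and 16 KO macrophages. The median macrophage had 976 CPM in WT and 746 in KO, and the median fibroblast 655 and 497.

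The genes were also set against Dct, as the UMIs of each gene in macrophages over the number expected if it stood to Dct as in melanoma cells. Pmel had a ratio of 0.99 (0.93 to 1.06) in WT and 1.06 (0.97 to 1.16) in KO, and Slc45a2 1.17 (1.0 to 1.36) and 1.02 (0.83 to 1.23). Here the level of Dct was taken as fixed. Mitf was above 1 in both libraries, with 305 UMIs in WT macrophages, 1.67 times the expected (1.49 to 1.87), and 143 in KO, 1.47 times (1.24 to 1.73). In macrophages without the deepest 25% of cells, Mitf had 1.64 (1.37 to 1.94) in WT and 1.9 (1.45 to 2.43) in KO. There Trpm1 had 0.54 (0.32 to 0.85) in WT, from 18 UMIs, and 1.68 (0.94 to 2.77) in KO, from 15. Tyrp1 was above 1 in WT (1.18, 1.1 to 1.25) and barely in KO (1.09, 1.0 to 1.19), and Tyr in KO (1.54, 1.2 to 1.95). Without the deepest cells Tyrp1 had 1.23 (1.12 to 1.34) in WT, and Mlana had 0.86 (0.75 to 0.99) in WT and 1.28 (1.09 to 1.49) in KO. The part of free RNA and of doublets in these ratios was not tested.

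In fibroblasts Mitf had 0.98 (0.79 to 1.21) in WT and 1.34 (1.05 to 1.68) in KO, so the intervals of macrophages and fibroblasts do not overlap in WT and overlap in KO. Other genes also departed from the ratio to Dct in fibroblasts, with Pmel at 0.85, Mlana at 0.87 and Tyrp1 at 0.84 in WT, and Pmel at 0.83, Tyr at 1.45 and Trpm1 at 0.47 (7 UMIs) in KO, each with an interval off 1. Dct is thus an uneven reference between the cell types. MITF is known as background to be made by cells of the macrophage lineage, such as osteoclasts. Between the libraries Mitf in macrophages was at 94.3 CPM in WT and 62.7 in KO (-0.59, -0.89 to -0.30), the 1 of 6 readable genes called lower, against 3.57% of genes, and none was called higher, against 3.68%. Mitf was lower in the melanoma cells of the KO library as well (-0.68), and the part of their free RNA in the macrophage value was not tested. Dct, the most abundant, had -0.07 (-0.17 to 0.04) there.

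**Figure D5:**
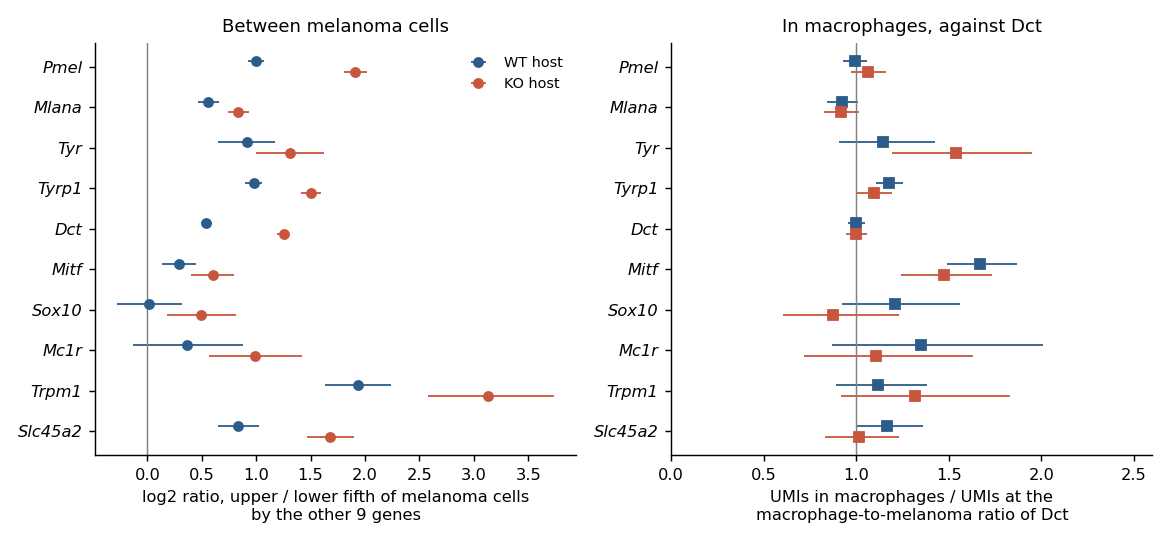
Left, log2 ratio of each gene between the upper and lower 20% of melanoma cells ordered by the other 9 genes, in the WT (blue) and KO (red) library. Right, UMIs of each gene in macrophages divided by the number expected if it stood to Dct as in melanoma cells, with 1 marked by a line, and bars are exact 95% intervals of counting error in both panels. Trpm1 lies furthest right on the left (1.93 and 3.13), Sox10 nearest 0, and Mitf lies above 1 in both libraries on the right (1.67 and 1.47).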

How the data were processed

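Single-cell 3′ libraries (10x Genomics; kit V3 per the labels, V2 per the study's methods) were sequenced from 1 WT and 1 KO pool of tumours. The deposited values are unnormalised UMI counts of each gene in each barcode, made by the authors with Cell Ranger 3.1.0 on GRCm38 with an Ensembl annotation, and Seurat 3.2.1 is named in the submitters' processing notes. The study's limits were used, of 200 to 5000 genes and no more than 7.5% mitochondrial UMIs. Melanoma cells had at least 1 UMI of the gating list and under 0.1% host marker and under 1% red cell UMIs. The limits that set S phase (0.15% of UMIs from 24 genes), G2/M (0.2% from 29 genes), non-cycling (under 0.05% of each), hypoxic (0.3%) and low-mitochondrial (1%) cells were set with these data in view. UMIs were summed per group and scaled by the group's total, as CPM. Poisson, Clopper-Pearson and conditional binomial intervals are exact, at 95%, and cover counting error only.

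With 1 library per genotype and cells not being replicates, no test was made and no p-value is given. A call is a ratio beyond 1.5-fold with at least 200 UMIs over both groups. Named besides the 10 genes were, of 4 pigment lists, up to 4 genes with the largest called ratio in each direction whose interval was off 0, and the 10 genes most like the sum; Slc24a5 in the genotype comparison and in KO hypoxic cells and the genes beside the 20% groups were named after their values were seen. The members and lists were chosen with earlier results of these data known. Asip could not be matched by symbol, so that list has 18 genes. Doublets were kept and were removed as an alternative. Other alternatives were to raise the mitochondrial limit to 15%, to drop the cap on genes, other scalings, a stricter gate, Leiden clusters made without the 10 genes, thinning and other state limits. The software was scanpy 1.11.5, scipy 1.17.1, pandas 2.3.3 and numpy 2.4.6 under Python 3.11.15. The ratios and intervals were tested on simulated counts with known folds.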

Additional observations from a re-analysis of the deposited data

Results flagged for a closer look

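Several genes took opposite signs in the 2 libraries in the same contrast between states, each with its counting interval off 0. The difference between the libraries was not tested, and with 1 library per genotype it cannot be. In S phase against non-cycling cells the log2 ratio of Mc1r was -0.57 in WT and 0.76 in KO, a difference (KO minus WT) of 1.33. That of Dct was -0.22 and 0.10, a difference of 0.32, and that of Mitf -0.14 and 0.24, a difference of 0.38. In G2/M against non-cycling cells Dct had -0.25 in WT and 0.03 in KO, a difference of 0.28, and the sum of the 10 genes -0.06 and 0.18, a difference of 0.23. In hypoxic against other cells Dct had 0.04 and -0.11, a difference of -0.16, and Mc1r 0.31 and -0.19, a difference of -0.49. In low-mitochondrial against other cells Mlana had -1.50 and 0.48, a difference of 1.98, and Slc45a2 -4.01, from 2 UMIs, and 0.18, a difference of 4.19.

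Barcodes that passed the melanoma gate but lay over the mitochondrial limit were not used above. They held 15326 CPM of the 10 genes in 1420 WT barcodes, at a median of 10.2% mitochondrial UMIs, and 10833 CPM in 1392 KO barcodes, at 10.3%. Their median barcode had 14054 CPM in WT and 10127 in KO, near the 13589 and 10017 of the melanoma cells kept.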

How the results depend on the processing

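No paired analysis was possible because there was 1 library per genotype. The direction of the summed 10 genes was the same under every alternative run in the comparisons of genotypes, S phase, hypoxia, low-mitochondrial cells and macrophages, where all but the first are means of the 2 libraries' log2 ratios. For G2/M against non-cycling cells (0.059) it was the same in 6 of 10, over -0.065 to 0.066. For low-mitochondrial cells the mean of -1.29 ran from -1.76 to -0.095. The first is a median over cells, chosen after seeing the data, and the second the lowest against highest 10% of cells by mitochondrial share. The sign of this mean follows WT (-2.51), as the KO value (-0.06) lay near 0 and changed sign under some alternatives. KO against WT, -0.43 in the report, was -0.46 with a 15% mitochondrial limit, -0.41 without mitochondrial and ribosomal protein genes in the scaling and -0.42 with the stricter gate. It was -0.61 in non-cycling cells, an alternative chosen after seeing the data, in which Mlana (0.027) and Mc1r (-0.48) took the other sign. The hypoxic mean of -0.16 was -0.082 with the median gene set to 0 and -0.28 between the upper and lower 10% of the hypoxia score. Tyrp1 took the other sign (0.26) within non-cycling cells without low-mitochondrial cells, also chosen after seeing the data. Macrophages against melanoma cells, -3.03 in the mean, gave -2.84 with the 15% limit, -3.63 without Scrublet doublets, -2.52 with the median gene set to 0, -3.65 with the stricter gate, -3.62 with clusters, -3.58 after thinning and, chosen after seeing the data, -3.77 as a median over cells and -3.41 without the deepest 25% of macrophages. For single genes, 65 of 90 values in macrophages moved by more than the spread between the libraries or the counting interval, 40 of 120 for hypoxia and 18 of 100 for genotype. Depth limits Mc1r, Trpm1, Sox10 and Tyr within small groups, and most of all the 18 WT low-mitochondrial cells.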
